A study of Mus musculus with 18 samples.

Results

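Chromatin accessibility was examined around 39 mouse genes that encode receptors for cytokines, chemokines and ligands of the TGF-beta superfamily. The assay was ATAC-seq, in which the Tn5 transposase cuts and tags open DNA. It had been applied to haematopoietic stem cells (HSC) and haematopoietic progenitor cells (HPC), and its result was deposited as 1 list of accessible regions for each of 6 groups. An accessible region was counted for a receptor gene when a summit, the point of strongest signal, lay in the gene or within 50 kb of it, and it was given to the nearest of the 39 genes. Regions of the 6 lists that overlapped were joined into sites, and 519 of 94178 sites belonged to the receptor genes. All 39 genes had at least 1 region in each list.

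The groups at 8 weeks of age were wild-type HSC (2 samples), HSC of mice with a floxed Kmt2c gene and Vav-Cre (2 samples), wild-type HPC (4 samples) and HPC of the same Kmt2c-deleted genotype (2 samples). Kmt2c encodes a histone methyltransferase that acts at enhancers. Vav-Cre removes the gene throughout the blood lineages, so other blood cells of the knockout animals lack it too. The groups at 16 weeks were wild-type HSC of mice that had been given 5-fluorouracil, an antimetabolite that kills cycling cells, at 150 mg/kg in 3 injections spaced 3 weeks apart (4 samples), and wild-type HSC of mice given the vehicle on the same schedule (4 samples). The labels give no markers for the sort and nothing on whether animals were pooled within a sample. All samples of a group share 1 list, so there was no replicate, no test across samples and no p-value in any comparison here.

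Class I cytokine receptors have no kinase of their own and pass the signal on through JAK kinases and STAT factors, and many share a chain: the common beta chain for IL-3, IL-5 and GM-CSF, the common gamma chain for IL-2 and its relatives, and gp130 for IL-6 and its relatives. Chemokine receptors are G protein-coupled and direct migration, with CXCR4 holding stem cells in the marrow. Receptors of the TGF-beta superfamily are serine/threonine kinases that activate SMAD factors, and TGF-beta is known for keeping stem cells quiescent.

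The lists differed in length, from 40073 regions in wild-type HSC to 80100 in vehicle HSC, and a longer list holds more regions at most genes. Knockout HSC had 48620 regions, the HPC lists 65832 (wild type) and 52840 (knockout), and 5-fluorouracil HSC 71363. Read depth per sample is unknown. Marker genes were called open where a region lay within 1 kb of an annotated gene end. Of 8 HSC markers, between 5 and 8 were open in every list, the HPC lists included, so these markers did not separate the HPC lists from the HSC lists. Of 6 progenitor and myeloid markers, 1 was open in each 8-week HSC list, 3 and 1 in wild-type and knockout HPC, and 4 and 2 in vehicle and 5-fluorouracil HSC. Among the markers of other cells, 0 to 1 of 3 for T and NK cells, 0 to 2 of 3 for B cells, 1 to 3 of 3 for macrophages, 2 of 3 for erythroid cells and 0 to 1 of 3 for stroma and endothelium were open per list.

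The promoters printed here are those of 4 receptor genes at whose start the lists differed (Cx3cr1, Csf3r, Ccr1 and Csf2rb2) and of the pair with the highest fold enrichment at a start that was open in all lists (Il12rb2 and Il6st). Each is the 250 bases before the annotated start, 5′ to 3′, from RefSeq on GRCm38.p6, the build of the lists. Capitals mark a match to the STAT motif.
Cx3cr1 (chr9:120068297-120068546, minus strand): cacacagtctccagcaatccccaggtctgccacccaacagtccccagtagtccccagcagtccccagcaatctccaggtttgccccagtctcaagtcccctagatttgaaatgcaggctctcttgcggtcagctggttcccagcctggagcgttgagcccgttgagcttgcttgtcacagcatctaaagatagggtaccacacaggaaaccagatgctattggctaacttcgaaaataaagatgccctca
Csf3r (chr4:126024409-126024658, plus strand): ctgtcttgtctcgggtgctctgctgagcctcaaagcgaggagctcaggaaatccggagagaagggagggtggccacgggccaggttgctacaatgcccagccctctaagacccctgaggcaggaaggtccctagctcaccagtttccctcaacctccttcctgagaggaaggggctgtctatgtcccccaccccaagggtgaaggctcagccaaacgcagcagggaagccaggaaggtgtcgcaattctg
Ccr1 (chr9:123968693-123968942, minus strand): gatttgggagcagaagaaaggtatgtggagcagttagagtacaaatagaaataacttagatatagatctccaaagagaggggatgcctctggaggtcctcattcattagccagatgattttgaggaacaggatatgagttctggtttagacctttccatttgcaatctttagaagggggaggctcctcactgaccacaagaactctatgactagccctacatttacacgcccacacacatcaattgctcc
Csf2rb2 (chr15:78305722-78305971, minus strand): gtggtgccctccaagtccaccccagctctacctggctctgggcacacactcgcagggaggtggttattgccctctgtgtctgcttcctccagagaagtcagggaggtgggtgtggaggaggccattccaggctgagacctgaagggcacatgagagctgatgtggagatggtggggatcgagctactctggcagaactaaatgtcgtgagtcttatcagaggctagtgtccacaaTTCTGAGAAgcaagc
Il12rb2 (chr6:67376189-67376438, minus strand): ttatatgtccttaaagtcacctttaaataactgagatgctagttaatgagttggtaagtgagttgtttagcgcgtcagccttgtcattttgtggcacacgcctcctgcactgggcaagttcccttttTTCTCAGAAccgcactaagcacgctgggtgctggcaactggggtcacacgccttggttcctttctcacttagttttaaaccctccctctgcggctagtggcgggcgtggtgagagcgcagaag
Il6st (chr13:112463820-112464069, plus strand): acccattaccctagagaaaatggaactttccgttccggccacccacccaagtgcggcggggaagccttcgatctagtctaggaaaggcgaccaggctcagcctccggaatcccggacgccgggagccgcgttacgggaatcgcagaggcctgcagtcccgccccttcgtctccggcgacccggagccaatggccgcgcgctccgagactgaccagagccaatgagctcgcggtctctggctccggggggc

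Both strands were searched for 8 motifs: ETS as CCGGAAG, RUNX as TGTGGTT, PU.1 as GAGGAAGT, STAT as TTCNNNGAA, AP-1 as TGANTCA, SP/KLF as GGGGCGGGG, GATA factors as AGATAA, and IRF. The ETS and PU.1 motifs share a GGAAG core. The table held 35 starts of 30 receptor genes. The STAT motif lay in 2 of these 35 windows, those of Csf2rb2 and Il12rb2, and in 7.02% of the 32851 windows of the table. SP/KLF lay in 6 of 35 windows against 10.4% of all, GATA in 4 against 9.99%, AP-1 in 3 against 6.75%, ETS in 2 against 6.91% and RUNX in 1 against 4.40%. PU.1 and IRF lay in 0 of 35 windows, against 2.44% and 2.98% of all. The windows of Cx3cr1, Csf3r, Ccr1 and Il6st held 0 matches to the 8 motifs.

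The number of receptor regions was 239 and 283 in wild-type and knockout HSC, 393 and 322 in wild-type and knockout HPC, and 442 and 415 in vehicle and 5-fluorouracil HSC. Series of 6 values keep this order below. The counts were 0.596%, 0.582%, 0.597%, 0.609%, 0.552% and 0.582% of the lists, so the receptor genes took nearly the same share of each. Per 100 kb of window the median receptor gene had 4.80 and 5.60 regions in wild-type and knockout HSC, 8.30 and 6.30 in the HPC pair, and 8.40 and 7.99 in vehicle and 5-fluorouracil HSC. The medians over 21887 protein-coding genes with the same window were 2.80, 3.41, 4.57, 3.63, 5.35 and 4.81. The receptor median was thus above the median of all genes in each list, and it lay inside the middle 50% of all genes (0.912 to 5.10 in wild-type HSC) in each list except wild-type HPC, where the upper quartile was 7.84.

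The fold enrichment of a region, deposited by the authors, compares the signal at its summit with background nearby in that list. The median for receptor regions was 14.6 and 13.8 in the 8-week HSC pair, 12.7 and 13.7 in the HPC pair, and 9.61 and 9.80 in the 16-week pair. Over all regions it was 14.6, 15.1, 13.7, 14.2, 10.2 and 10.4 in the same order. Receptor regions thus had no higher fold than regions at large in any list. The gene bodies of other genes lie inside these windows: the nearest protein-coding gene was the receptor itself for 254 of the 519 sites (48.9%).

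**Figure D1:**
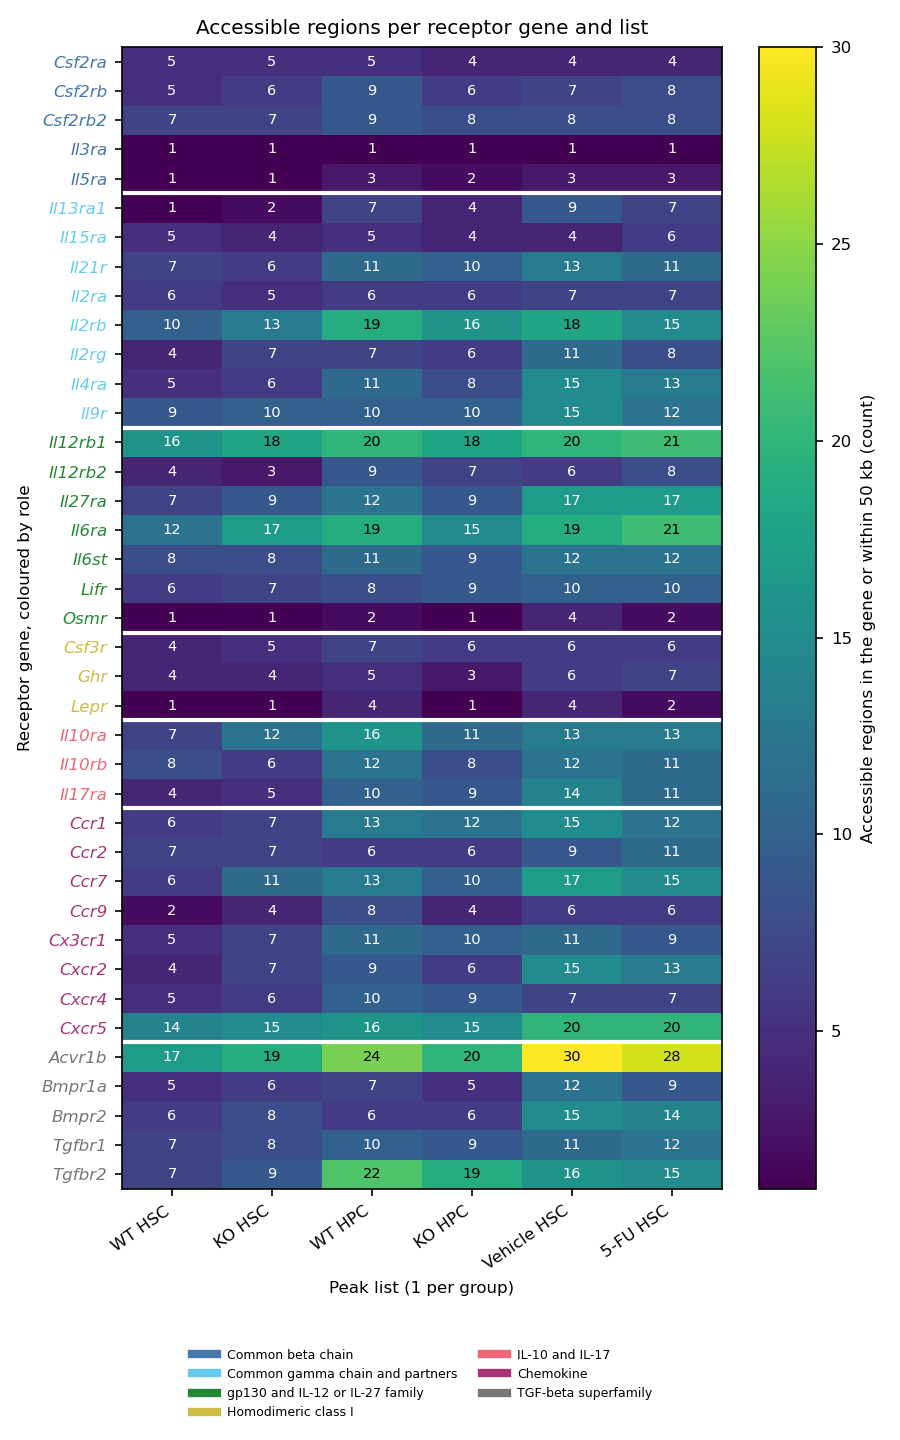
Number of accessible regions in or within 50 kb of each receptor gene (rows, coloured by role) in each of the 6 lists (columns, 1 list per group); colour and figure in the cell give the count. Acvr1b had the most regions in every list, from 17 to 30, and Il3ra had 1 in every list.

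Of the 519 receptor sites, 192 were present in all 6 lists (37.0%, 95% Wilson interval 33.0% to 41.2%), against 32.2% of all sites. Counting only regions with a summit in a receptor gene, the share was 31.9% (44 of 138). Counting only regions nearest to a member, it was 32.0% (82 of 256), so the higher share depended on the windows used. Intervals cover counting error over sites or regions only. They treat neighbouring sites as independent, which they are not. A further 79 sites (15.2%) were in 1 list, against 18.1% of all sites. By position, 13 of 27 sites at an annotated start were in all 6 lists (48.1%), as were 28 of 102 in gene bodies (27.5%) and 146 of 377 in the flanks (38.7%).

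Receptors of the common beta chain had the highest share of sites in all 6 lists, 17 of 26 (65.4%, interval 46.2% to 80.6%). Csf2ra, the specific chain of the GM-CSF receptor, had 4 joined sites, and all 4 were in all 6 lists. Counted by region, 1 wild-type HPC region and 1 knockout HSC region near Csf2ra were absent from knockout HPC. The Csf2ra site next to its start had a fold enrichment of 14.5 and 13.2 in wild-type and knockout HSC, 12.9 and 12.8 in HPC, and 15.8 and 17.3 in vehicle and 5-fluorouracil HSC. Il3ra, the specific chain of the IL-3 receptor, had a single site, at its start, with a fold of 20.7, 22.3, 21.3, 22.0, 16.8 and 18.3 in the same order of lists. Il5ra, the specific chain for IL-5, had 1 region in each 8-week HSC list and 2 to 3 in the others, and no region at its start in any list.

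The other roles had between 31.4% and 41.4% of their sites in all 6 lists. For gp130 and the IL-12 and IL-27 receptors this was 41 of 99 sites, for the common gamma chain and its partners 40 of 105, for the homodimeric class I receptors 8 of 21, for the chemokine receptors 38 of 116, for the IL-10 and IL-17 receptors 16 of 50, and for the TGF-beta superfamily 32 of 102. Their intervals overlapped each other. The lower bound for the common beta chain, 46.2%, lay above the upper bounds of the chemokine (41.7%), TGF-beta (40.9%) and IL-10 and IL-17 (45.8%) receptors, and the roles were not tested against each other.

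The 10 sites in all lists with the strongest −log10 p within their lists lay near 8 receptor genes, and for 7 of them the nearest gene was another one. The site near Il9r, whose product binds IL-9, at chr11:32204991-32205764, had a fold of 37.6, 37.4, 34.0, 32.6, 32.7 and 33.2 and lay nearest to Snrnp25. Sites near Il27ra, Il21r, Acvr1b and Il12rb2, and a pair near Il12rb1, lay nearest to Rfx1, Gtf3c1, Acvrl1, Serbp1, and to Arrdc2 and Mpv17l2. At the remaining 3 sites the receptor was the nearest gene. These were a site beside Il10ra, the ligand-binding chain of the IL-10 receptor (chr9:45273965-45274948, fold 25.7, 25.1, 22.9, 22.9, 20.1 and 21.0), a site inside Il21r (chr7:125630141-125630893, fold 24.8, 24.8, 25.5, 25.3, 21.5 and 21.9) and a site inside Il17ra (chr6:120466535-120467367, fold 21.7, 18.3, 16.6, 17.3, 16.9 and 18.3).

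At annotated starts, 13 of the 35 receptor starts had a region within 1 kb in all 6 lists, 6 had none in any list and 16 had one in some lists. The number open was 15 (42.9%) and 19 (54.3%) in wild-type and knockout HSC, 24 (68.6%) and 21 (60.0%) in the HPC pair, and 25 (71.4%) in each of the 16-week lists. Of all 32851 starts in the table, 40.1%, 42.9%, 46.8%, 42.4%, 52.8% and 51.0% were open in the same order. Receptor starts thus covered a range of 42.9% to 71.4% over the lists, and all starts a range of 40.1% to 52.8%. The starts closed in all lists were those of Cxcr2, Il2ra, Il5ra and Ccr9 and the second starts of Tgfbr1 and Lifr.

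Starts open in all lists included those of Il12rb2, the signalling chain for IL-12, and Il6st, which encodes gp130. At the Il12rb2 start the fold was 25 and 29.0 in wild-type and knockout HSC, 25.1 and 23.7 in HPC, and 25.2 and 26.0 in vehicle and 5-fluorouracil HSC. At the Il6st start it was 22.2, 25.4, 25.2, 23.7, 22.2 and 22.6. Tgfbr1, the type I TGF-beta receptor kinase, had 19.3, 23.5, 17.4, 19.3, 17.8 and 18.2 at its first start, and Cxcr4 had 14.0, 13.4, 11.0, 13.4, 14.2 and 14.3.

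Another set of starts was open in all lists but wild-type HSC, the shortest list. Cx3cr1, the fractalkine receptor of monocytes and macrophages, had no region at its start in wild-type HSC, and a fold of 15.7 in knockout HSC, 26.4 and 27.0 in wild-type and knockout HPC, and 14.8 and 17.3 in vehicle and 5-fluorouracil HSC. The region ranked at percentile 92.2 and 95.1 of the HPC lists by −log10 p and between 44.4 and 66.8 of the HSC lists that held it. Csf3r, the G-CSF receptor of granulocytes, had none in wild-type HSC and a fold of 6.84 (percentile 3.16), 12.0, 12.1, 8.75 and 9.42 in the remaining lists. The start of Il4ra, the IL-4 receptor chain, had 13.8, 7.87, 8.74, 11.0 and 10.7 there, and that of Tgfbr2, the type II TGF-beta receptor, 13, 9.73, 8.10, 13.7 and 15.6. All 4 starts thus had a region in each list except wild-type HSC.

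Ccr1 and Il21r had an open start in both HPC lists and both 16-week HSC lists, and in neither 8-week HSC list. At the start of Ccr1, a chemokine receptor of myeloid cells, the fold was 19.0 and 13.1 in wild-type and knockout HPC and 9.02 and 9.94 in vehicle and 5-fluorouracil HSC. At the start of Il21r, the IL-21 receptor, it was 8.18, 7.67, 4.65 and 2.96. By −log10 p the Il21r region ranked at percentile 19.5 in vehicle HSC and 0.217 in 5-fluorouracil HSC, among the weakest of that list. Ccr2, a receptor that draws monocytes out of the marrow, had a region beginning about 1 kb after its start in all 6 lists (chr9:124103177-124103682, fold 16.9, 22.1, 20.8, 21.2, 12.7 and 7.86), which fell inside the 1 kb limit in knockout HPC only.

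**Figure D2:**
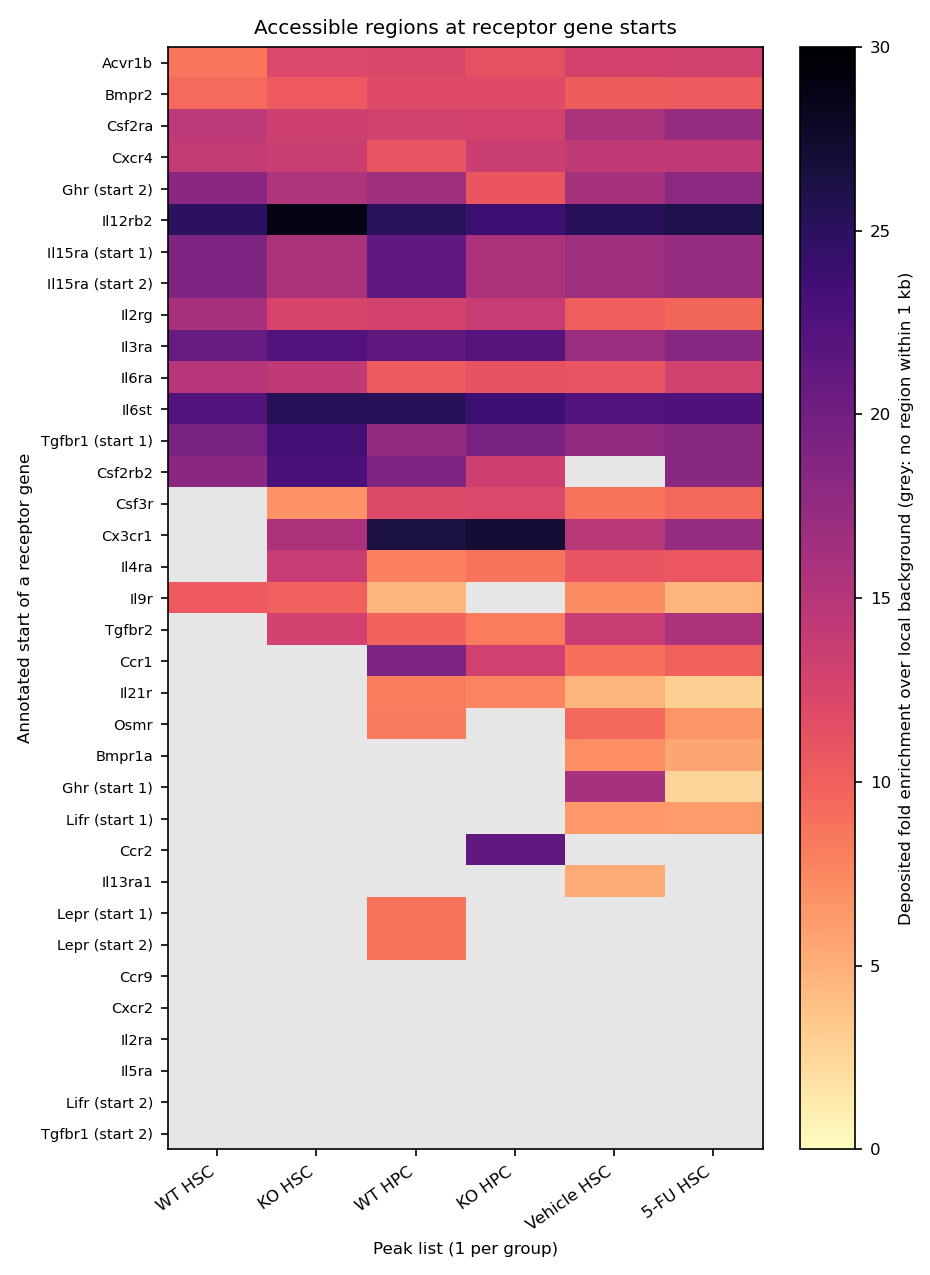
Deposited fold enrichment (colour, from 0 to 30) of the strongest region within 1 kb of each of 35 annotated receptor starts (rows) in each of the 6 lists (columns); grey means no region. The upper 13 rows are open in all lists, the lowest 6 in none, and the wild-type HSC column has the most grey cells.

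Wild-type HPC against wild-type HSC gave the largest differences. Of 393 receptor regions in wild-type HPC, 169 were absent from wild-type HSC (43.0%, interval 38.2% to 47.9%), where the share over all regions of that list was 44.6%. Of 239 regions in wild-type HSC, 13 were absent from wild-type HPC (5.44%, interval 3.21% to 9.08%), against 8.77% of all. More regions were found only in HPC at 34 of the 39 genes (87.2%) and only in HSC at 1 (2.56%). The HPC list is the longer, and over 21887 protein-coding genes with the same window 70.3% had more regions only in HPC and 2.77% only in HSC. Of the genes where the numbers differed, HPC had more at 97.1% of receptor genes and 96.2% of all genes. With both lists limited to the same number of strongest regions the shares were 22.4% and 19.2% (24.3% and 23.7% over all regions), with 16 genes having more HPC-only regions (41.0%, against 26.5% of all genes) and 12 more HSC-only regions (30.8%, against 29.6%). The HPC share was 48.0% with gene bodies alone and 48.2% with regions nearest to a member (44.6% of all), and 48.4% with 200 bp windows (47.2% of all), so its order against regions at large depended on the windows used.

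Tgfbr2 had the most HPC-only regions, 15 against 0 HSC-only. Its windows held 7 and 9 regions in wild-type and knockout HSC, 22 and 19 in HPC, and 16 and 15 in vehicle and 5-fluorouracil HSC. Il10ra and Il2rb, a signalling chain for IL-2 and IL-15, each had 9 HPC-only regions and 0 HSC-only regions, Il6ra 9 and 2, and Acvr1b, an activin type I receptor, 8 and 1. Ccr1 and Ccr7, which guides lymphocytes to lymph nodes, each had 7 and 0. Cxcr4, Il17ra, Il4ra, Cx3cr1, Ccr9 and Il13ra1 each had 6 and 0, and Cxcr2, the neutrophil chemokine receptor, and Il27ra each 6 and 1. Il12rb2 had 5 and 0, Il21r and Il10rb 5 and 1, Il12rb1 and Csf2rb 4 and 0, Tgfbr1 4 and 1, and Lepr, Csf3r, Il6st and Il2rg 3 and 0. These are counts and not shares, and over all regions 44.6% of the HPC list was absent from HSC. HPC regions shared with HSC numbered 16 at Acvr1b and at Il12rb1, and 10 at Il2rb and at Il6ra. They numbered 8 at Il6st, 7 at Tgfbr2 and at Il10ra, 2 at Ccr9 and 1 at Il13ra1.

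At equal list lengths the balance shrank and for some genes turned. Tgfbr2 had 4 HPC-only regions against 1, Il10ra 5 against 0, Il4ra 4 against 0, Il17ra 3 against 0, Ccr1 4 against 2 and Ccr7 4 against 1. Il2rb had 1 against 3, Il6ra 4 against 5, Acvr1b 2 against 5, Il27ra 1 against 2 and Il6st 1 against 2, each with more HSC-only than HPC-only regions. Among the IL-10 and IL-17 receptors, all 3 genes had more HPC-only regions under both settings, 20 against 1 as deposited and 10 against 1 at equal number. As deposited these were out of 38 HPC and 19 HSC regions. Over all regions 44.6% and 8.77% were in a single list as deposited, and 24.3% and 23.7% at equal number. The roles were not tested against each other.

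The knockout lists gave the same comparison with lists nearer in length. In knockout HPC 83 of 322 receptor regions were absent from knockout HSC (25.8%, interval 21.3% to 30.8%), against 27.8% of all, and in knockout HSC 44 of 283 were absent from knockout HPC (15.5%, interval 11.8% to 20.2%), against 21.9% of all. Genes with more HPC-only regions numbered 18 (46.2%, against 37.1% of all genes) and those with more HSC-only regions 9 (23.1%, against 23.4%). At equal number they were 16 (41.0%, against 28.1%) and 15 (38.5%, against 31.0%). Tgfbr2 again stood highest, with 10 against 0, and 8 against 0 at equal number. Ccr1 had 5 against 0, Il12rb2 and Il21r 4 against 0, Il17ra 5 against 1, Il2rb 5 against 2, and Cxcr4 and Cx3cr1 3 against 0. At equal number these 7 genes still had more HPC-only than HSC-only regions, with 4, 3, 4, 4, 3, 2 and 2 HPC-only regions in the order named.

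Sites in both HPC lists and no HSC list numbered 27 (5.20%, interval 3.60% to 7.46%), against 4.02% of all sites. The 9 sites of TGF-beta receptors included 6 of Tgfbr2. The strongest was chr9:116076861-116077825, 98.2 kb downstream of the Tgfbr2 start and nearest to Gadl1, with a fold of 23.2 in wild-type HPC and 23.5 in knockout HPC, at percentile 89.7 and 91.8 of the lists. Further sites lie upstream of the Tgfbr2 start, at 2.95 kb with a fold of 7.73 and 8.44 and at 6.48 kb with 7.80 and 6.84. The last 3 lie downstream, at 21.4 kb (9.43 and 7.0), 41.8 kb (11.4 and 8.46) and 133 kb (14.4 and 16.2). Tgfbr2 also had 5 sites in all 6 lists, such as that 14.3 kb downstream of the start, with a fold of 22.8 in both 8-week HSC lists, 23.3 and 20.7 in HPC and 22.2 and 23.9 at 16 weeks.

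Chemokine receptors had 8 of the 27 HPC sites. Cx3cr1 had one 24.9 kb downstream of its start, with a fold of 21.8 in wild-type HPC and 26.6 in knockout HPC, and one 15.1 kb upstream, with 15.8 and 12.7. Cxcr4, the receptor for CXCL12, had 3, at 16.0 kb upstream (17.0 and 14.6), 44.4 kb upstream (14.8 and 13.5) and 42.7 kb downstream (5.47 and 7.51). Cxcr4 also had 4 sites in all 6 lists, one of which, 30.9 kb upstream at chr1:128622637-128623717, had a fold of 19.4, 20.6, 22.1, 18.9, 21.3 and 22.4. Further HPC sites lay inside Il12rb2 (23.4 and 18.5), 37.6 kb upstream of Tgfbr1 (9.21 and 12.5, nearest to Col15a1) and near Il17ra (11.3 and 8.65, nearest to Kdm5a).

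Sites in all 4 HSC lists and neither HPC list numbered 10 (1.93%, interval 1.05% to 3.51%), against 1.83% of all. Ccr2 had such a site 42.0 kb upstream of its start, nearest to Ccr3, with a fold of 17.8 and 18.5 in wild-type and knockout HSC and 22.5 and 18.3 in vehicle and 5-fluorouracil HSC, and another inside the gene, with 11.7, 13.7, 10.9 and 8.55. Cxcr2 had one 18.9 kb downstream of its start (chr1:74172615-74173319), with 20.2, 20.1, 22.4 and 25.2, although its start was closed in all lists. Further sites belonged to Il27ra (16.3, 14.7, 21.1 and 20.8, nearest to Rln3), Il9r (between 6.21 and 10, nearest to Mpg) and, inside the gene, Il6ra (11.3, 9.62, 9.68 and 8.06). One near Acvr1b, nearest to Nr4a1, had 7.08, 10.2, 7.39 and 8.34. Ccr2 and Cxcr2, receptors best known from monocytes and neutrophils, thus had sites in each HSC list that neither HPC list held. Cxcr2 also had 1 site of the opposite kind, in both HPC lists and no HSC list. The share of receptor sites held by the HSC lists alone was close to that of all sites.

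The strongest regions of a comparison were taken by fold among those with nothing of the other list within 1 kb. In wild-type HPC these were regions near Il27ra (28.8, nearest to Prkaca), at the Cx3cr1 start (26.4) and inside Il10rb (23.9). The others lay near Lepr (25.2, nearest to Gm52666) and Lifr (25, nearest to Egflam). The Il10rb region, in the gene for the accessory chain of the IL-10 receptor (chr16:91412899-91413580), was also in knockout HPC and both 16-week HSC lists and in neither 8-week HSC list. In wild-type HSC they included the Ccr2, Cxcr2 and Il27ra sites described for all HSC lists. All 13 receptor regions that wild-type HSC held and wild-type HPC did not were found in vehicle HSC and in 5-fluorouracil HSC, 10 were in knockout HSC and 0 in knockout HPC. Over all regions of that kind, 97.2%, 91.6%, 68.3% and 17.2% were found in these lists. In the knockout comparison the 5 strongest in HPC were near Cx3cr1 (26.6), Il10rb (26.5), Tgfbr2 (23.5, nearest to Gadl1), Il12rb2 (18.5) and Il2ra (18.2). In HSC they included regions near Ccr2 (18.5, nearest to Ccr3), Cxcr2 (20.1), Ccr9 (19.3, nearest to Fyco1) and Ghr (17.2).

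Loss of Kmt2c was compared next, first in HSC. In knockout HSC 63 of 283 receptor regions were absent from wild-type HSC (22.3%, interval 17.8% to 27.5%), against 25.9% of all regions. In wild-type HSC 19 of 239 were absent from knockout HSC (7.95%, interval 5.15% to 12.1%), against 9.99% of all. The knockout, with the longer list, had more single-list regions at 25 genes (64.1%, against 47.7% of all genes) and the wild type at 4 (10.3%, against 9.44%). Of genes with unequal numbers, the knockout had more at 86.2% of receptor genes and 83.5% of all. At equal list length the genes split 12 and 11 (30.8% and 28.2%, against 23.9% and 24.5% of all genes), and the shares of regions were 11.4% and 11.7% (15.3% and 15.1% over all regions). The excess in the knockout list was not seen at equal length. Equal length itself brought the single-list totals over all regions close together (6148 and 6042 regions). This setting therefore cannot show where the excess came from, which was not tested. Of 3 macrophage markers, Cd68 was open in both lists and Marco and Adgre1 in knockout HSC only; their part in these counts was not tested.

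The genes with the largest excess in knockout HSC were Il10ra and Il6ra, the IL-6 binding chain, each with 5 regions only in the knockout and 0 only in the wild type. Ccr7 had 6 and 1, and Cxcr2 and Il2rb 3 and 0. Knockout HSC regions shared with the wild type numbered 12 at Il6ra, 10 at Il2rb, 7 at Il10ra, 5 at Ccr7 and 4 at Cxcr2. Over all regions 25.9% of knockout HSC regions were absent from wild-type HSC. At equal length Il10ra had 3 and 0, Ccr7 3 and 1, Il6ra 1 and 0, Cxcr2 0 and 0, and Il2rb 0 and 3. The regions around Il10ra numbered 7 and 12 in wild-type and knockout HSC, 16 and 11 in HPC and 13 in each 16-week list, and those around Ccr7 6, 11, 13, 10, 17 and 15. Wild-type HSC thus had the lowest count of the 6 lists at both genes.

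By fold, the strongest knockout-only regions in HSC were near Il27ra (21.7, nearest to Prkaca) and Ccr9, a receptor of gut-homing lymphocytes (19.3, nearest to Fyco1). The next lay beside Ccr7 (17.8), inside Ghr (17.2) and near Il10ra (16.9, nearest to Tmprss13). The wild-type-only regions were inside Il2ra (18.1), near Ccr2 (14.3) and Tgfbr2 (14.3), inside Tgfbr1 (13.8) and inside Il12rb2 (11.9), and each of these 5 was also in both HPC lists and both 16-week lists. Of the 63 knockout-only regions, 61 were in vehicle HSC (96.8%), 60 in 5-fluorouracil HSC and 47 in wild-type HPC, and 0 were in no other list. Over all knockout-only regions 93.3% were in vehicle HSC, 85.3% in 5-fluorouracil HSC and 66.2% in wild-type HPC, and 2.32% were in no other list. Nearly all receptor regions that separated knockout from wild-type HSC were thus also present in other wild-type HSC. They were weak: their median percentile by −log10 p was 16.6, against 63.1 for the receptor regions both lists held. Wild-type-only regions were weak as well, at 14.9 against 57.5. In each direction of the 5 comparisons single-list receptor regions had the lower median, from 7.09 to 29.0, against 54.6 to 73.6 for shared ones.

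In HPC the balance as deposited was the opposite, as was the order of list lengths. In wild-type HPC 84 of 393 receptor regions were absent from knockout HPC (21.4%, interval 17.6% to 25.7%), against 25.9% of all. In knockout HPC 12 of 322 were absent from wild-type HPC (3.73%, interval 2.14% to 6.40%), against 6.96% of all. The wild type had more single-list regions at 33 genes (84.6%, against 58.3% of all genes) and the knockout at 1 (2.56%, against 5.28%). Of genes with unequal numbers, the wild type had more at 97.1% of receptor genes and 91.7% of all. At equal length the genes split 13 for the knockout (33.3%, against 23.2% of all) and 15 for the wild type (38.5%, against 26.6%), and the shares of regions were 9.63% in the knockout and 10.2% in the wild type (12.7% and 13.5% over all regions). Among 6 progenitor and myeloid markers, Cd48 was open in both HPC lists and Prtn3 and Ctsg in wild-type HPC only; their part in these counts was not tested.

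Members with the largest excess in wild-type HPC were Il10ra, with 0 regions only in the knockout and 5 only in the wild type, Il6ra, Ccr9 and Acvr1b with 0 and 4, Il2rb with 1 and 5, and Il27ra and Tgfbr2 with 1 and 4. Cxcr2, Lepr, Il4ra, Ccr7, Il6st, Csf2rb, Il10rb and Il13ra1 each had 0 and 3. These are counts and not shares, and over all regions 25.9% of wild-type HPC regions were absent from knockout HPC. Wild-type HPC regions shared with the knockout numbered 20 at Acvr1b, 18 at Tgfbr2, 15 at Il6ra, 11 at Il10ra, 4 at Ccr9 and 1 at Lepr. At equal length Il10ra had 0 and 3, and Lepr and Il4ra 0 and 2. Il6ra, Ccr7, Il6st and Csf2rb then had 0 and 1, Ccr9 1 and 2, Il27ra 2 and 2, Il13ra1 1 and 1, and Il10rb 0 and 0. Tgfbr2 turned to 4 and 1, Il2rb to 3 and 0 and Acvr1b to 3 and 1, with more regions only in the knockout. Il10ra kept more regions in wild-type than in knockout HPC, and more in knockout than in wild-type HSC, as deposited and at equal length. With gene bodies alone it had 0 knockout-only and 0 wild-type-only regions in HSC, and 0 and 1 in HPC. With regions nearest to Il10ra these numbers were 2 and 0 in HSC and 0 and 1 in HPC.

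The strongest wild-type-only regions in HPC were near Lepr, the leptin receptor (25.2, nearest to Gm52666), and near Bmpr1a, a type I BMP receptor (21.4, nearest to Mmrn2). The next were inside Il12rb1 (17.2), near Cxcr2 (16.4, nearest to Cxcr1) and inside Tgfbr2 (14.6). All 5 were in both 16-week HSC lists. The strongest knockout-only regions were near Il27ra (15.1, nearest to Palm3) and inside Lifr (11.3). The next were near Il9r (9.50, nearest to Mpg) and Ccr2 (9.23, nearest to Ccr3), and inside Il2rb (8.58). Those of Lifr and Il9r were in no other list. Of the 84 wild-type-only regions, 54 were in vehicle HSC (64.3%, against 68.9% of all such regions) and 25 in no other list (29.8%, against 27.0%). Of the 12 knockout-only regions, 8 were in vehicle HSC (66.7%, against 62.0%) and 4 in no other list (33.3%, against 33.8%).

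Across both cell types, 0 of 519 receptor sites were in both knockout lists and no wild-type list, and over all sites this share was 0.0287%. The upper bound of the 95% Wilson interval for 0 of 519 is 0.735%, and the limit taken as 3 counts of 519 is 0.578%. A single site, inside Ghr, the growth hormone receptor gene (chr15:3356180-3357106), was in all 4 wild-type lists and neither knockout list (0.193% of receptor sites, against 0.847% of all). Its fold was 7.98 and 8.96 in wild-type HSC and HPC, and 16.0 and 17.0 in the 16-week pair. In both 8-week lists it was among the weakest regions, at percentile 0.816 and 7.33. With the 6 lists at equal number, 2 of 317 receptor sites were in both knockout lists alone (0.631%, against 0.350% of all sites). Without the weakest 25% of each list, 3 of 394 were in all wild-type and no knockout lists (0.761%, against 0.588%).

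Treatment with 5-fluorouracil was compared with vehicle in HSC at 16 weeks. Of 415 receptor regions after 5-fluorouracil, 23 were absent from vehicle HSC (5.54%, interval 3.72% to 8.18%), against 5.61% of all. Of 442 regions in vehicle HSC, 52 were absent after 5-fluorouracil (11.8%, interval 9.09% to 15.1%), against 16.2% of all. Vehicle had more single-list regions at 19 genes (48.7%, against 46.5% of all genes) and 5-fluorouracil at 6 (15.4%, against 9.30%). At equal length this turned to 6 (15.4%, against 24.4%) and 16 (41.0%, against 23.5%), with 9.40% of 5-fluorouracil regions and 5.56% of vehicle regions in a single list (interval 3.70% to 8.27% for vehicle), against 8.93% and 9.41% of all regions. Of genes with unequal numbers, 5-fluorouracil then had more at 72.7% of receptor genes and 49.1% of all genes, with no test of the difference. The direction at the receptor genes thus depended on how list length was treated. Markers of macrophages, erythroid cells, B cells and T and NK cells were open in equal number in both lists; of the progenitor and myeloid markers Mpo and Cebpe were open in vehicle HSC only, and their part in these counts was not tested.

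Il17ra, the IL-17 receptor chain, Il9r, Bmpr1a, Acvr1b and Il2rg, the common gamma chain, each had 0 regions only after 5-fluorouracil and 3 only in vehicle. At equal length Il17ra and Il2rg had 2 and 1, Bmpr1a 1 and 0, Acvr1b 2 and 2, and Il9r 0 and 0. By role, the 5 TGF-beta receptors had 6 and 13 such regions, of 78 and 84, as deposited and 11 and 5 at equal number. The 7 genes of the gp130 and IL-12 group had 6 and 5, of 91 and 88, and 9 and 3 at equal number. Over all regions, 5.61% and 16.2% were in a single list as deposited, and 8.93% and 9.41% at equal number. The other roles are not listed here, and no role was tested against another.

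The strongest region found only after 5-fluorouracil was the start of Csf2rb2, which encodes an IL-3 specific beta chain in the mouse. The region (chr15:78304902-78306051) had a fold of 18.2 there, 18.1 and 22.9 in wild-type and knockout HSC, and 18.9 and 13.3 in the HPC pair. Vehicle HSC, the longest list, had no region within 1 kb of it, while the region ranked at percentile 75.3 in 5-fluorouracil HSC. Its printed promoter holds the STAT match closest to a start among the 35 windows. The neighbouring gene Csf2rb is a near-identical copy, and the sources used here do not say how reads that match both were counted. Csf2rb itself had a region within 1 kb of a gene end in all 6 lists (chr15:78325595-78326434), with a fold of 15.3, 17.5, 12.4, 11.0, 16.5 and 15.4.

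The next strongest regions found only after 5-fluorouracil included those near Il6ra (8.29, nearest to She) and Il2rb (6.51, nearest to Sstr3) and inside Tgfbr2 (6.43). Those found only in vehicle were inside Bmpr2, the type II BMP receptor gene (8.75), and inside Il21r (8.00). Others lay near Osmr (7.39), Il2ra (7.39) and Il13ra1 (7.25, nearest to Zcchc12). All of these had a lower fold than the median receptor region of their list. Of the 23 regions found only after 5-fluorouracil, 11 were in wild-type HPC (47.8%, against 30.0% of all such regions) and 12 in no other list (52.2%, against 64.9%). Of the 52 found only in vehicle, 10 were in wild-type HPC (19.2%, against 27.8%) and 38 in no other list (73.1%, against 63.3%).

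**Figure D3:**
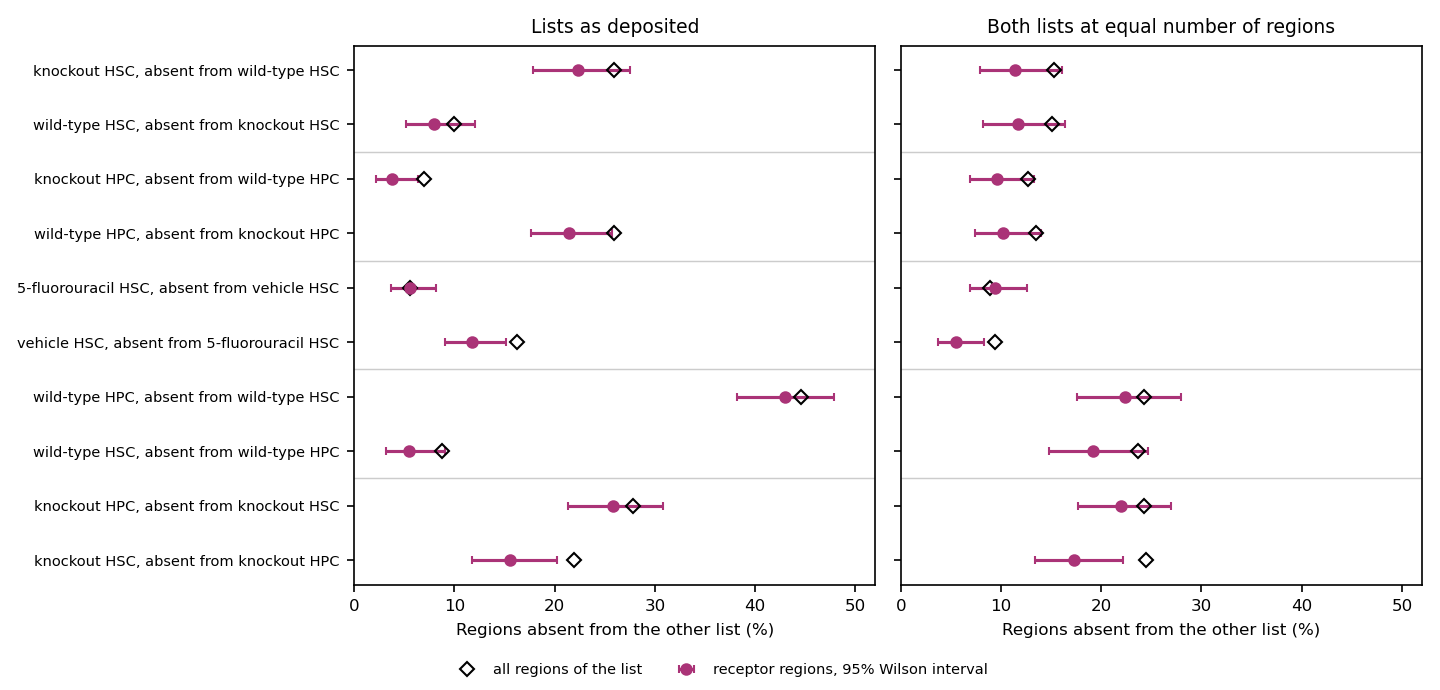
Share of regions of one list that are absent from another (horizontal axis, percent) for 5 comparisons in both directions, with lists as deposited (left) and limited to equal numbers of regions (right); circles are receptor regions with 95% Wilson intervals and open diamonds all regions of the same list. In the left panel all 10 circles are at or below their diamonds, and in the right panel 9 of 10.

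As deposited and with the 50 kb windows, the receptor share in all 10 directions of the 5 comparisons lay below the share over all regions of the list, and the interval left out that share in 4. At equal number the receptor share was below in 9 of 10 directions, and the interval left out the share of all regions in 2, vehicle against 5-fluorouracil and knockout HSC against knockout HPC. This order held less often when fewer regions were counted for the receptors. With gene bodies alone the receptor share was above that of all regions in 4 of 10 directions: knockout HSC against wild-type HSC (26.9% and 25.9% over all regions), 5-fluorouracil against vehicle (7.08% and 5.61%), wild-type HPC against wild-type HSC (48.0% and 44.6%) and knockout HPC against knockout HSC (31.2% and 27.8%). With regions nearest to a member it was above in 4 as well: knockout against wild-type HSC (26.9%) and the reverse (11.1%, against 9.99% of all), and HPC against HSC in the wild type (48.2%) and the knockout (30.2%). Removal of the weakest 25% put it above in 3 directions, and 200 bp windows and the 1 kb distance in 1 each. Comparisons with a list in common share its regions, so these are not 10 separate observations.

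The 29 genes fixed as partners of the receptors were ligands, JAK kinases, SOCS inhibitors, SMAD factors and phosphatases. As deposited, knockout HSC had more single-list regions than wild-type HSC at 19 of them and fewer at 3, and knockout HPC more than wild-type HPC at 0 and fewer at 21. 5-fluorouracil HSC had more than vehicle HSC at 7 and fewer at 16, and wild-type HPC more than wild-type HSC at 26 and fewer at 0. These counts follow the order of list lengths, as did those over all genes. At equal number the split was 9 and 9 in HSC, 8 for knockout and 12 for wild-type HPC, 13 for 5-fluorouracil and 9 for vehicle, and 12 for wild-type HPC and 9 for wild-type HSC.

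Of the partners' regions, 22.2% in knockout HSC were absent from wild-type HSC (25.9% over all regions), 23.0% in wild-type HPC from knockout HPC (25.9%), 11.5% in vehicle HSC from 5-fluorouracil HSC (16.2%) and 43.5% in wild-type HPC from wild-type HSC (44.6%). The partners' shares were thus below those of all regions in these 4 directions, as the receptors' were. The receptor genes had 22.3%, 21.4%, 11.8% and 43.0%, within the partners' intervals in each. At equal number the partners' shares in these directions were 13.6%, 11.5%, 6.67% and 23.4%, against 15.3%, 13.5%, 9.41% and 24.3% of all regions. As deposited, 5.95% of the partners' regions after 5-fluorouracil were absent from vehicle HSC, above the 5.61% of all. Between knockout HPC and knockout HSC the partners' shares were 25.3% and 17.8%, against 27.8% and 21.9% of all.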

How the data were processed

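ATAC-seq of 18 mouse samples in 6 groups was used as 6 deposited peak lists, 1 per group. Per the submitters' processing notes, Bowtie2, MACS2 and mm10 (GRCm38) were used; the sources used here give no versions and do not say how a group's reads were pooled or the lists filtered. RNA is named as the molecule in the labels, at odds with the assay, which was not resolved.

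Each deposited row holds an interval, a score, which was not used, a fold enrichment (ratio over local background), a −log10 p and a summit offset in bp. The fold and the −log10 p are the authors' values for each list and were not compared as changes. Overlapping rows of a list were merged into a region with the highest fold and −log10 p of its rows. An overlap of 1 bp or more with a region of another list counted as presence there. In equal-number comparisons both lists kept the strongest regions by −log10 p, as many as the shorter list has. Percentiles rank −log10 p within a list. Shares carry 95% Wilson intervals. Genes and promoters came from RefSeq tables of GRCm38.p6. The tables hold a promoter for 30 of 39 members. Coordinates count from 1.

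The members and gene lists were chosen with earlier results of these data known. Members with a net number of single-list regions of at least 3, the 5 strongest single-list regions per direction, the 10 strongest sites in all lists and up to 8 sites per class are named, apart from 1 item that is not reported here. The partner genes were counted as a group only. For counts over all genes, each protein-coding gene had its own window, and a region in several windows counted for each gene, while receptor regions went to the nearest member. Region matching was tested on simulated lists. Python 3.11.15, pandas 2.3.3, numpy 2.4.6 and scipy 1.17.1 were used. Alternatives were a summit window of 200 bp, removal of the weakest 25% of each list, a distance of 1 kb, gene bodies only, and regions nearest to a member.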

Additional observations from a re-analysis of the deposited data

How the results depend on the processing

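The lists are pooled, so depth per sample is unknown and weak regions cannot be told from regions missed in a shorter list. No paired analysis was possible because each group has 1 pooled list and no value per replicate, and leaving out a replicate could not be run for the same reason.

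At equal number, the single-list shares moved to 11.4% for knockout HSC, 9.63% and 10.2% for knockout and wild-type HPC, 9.40% and 5.56% for 5-fluorouracil and vehicle HSC, and 22.4% and 19.2% for wild-type HPC against wild-type HSC. Sites in both knockout lists alone rose in number to 2, and those in 1 list numbered 31. The net number turned for Il2rb (-3) in knockout against wild-type HSC, for Tgfbr2 (3), Il2rb (3) and Acvr1b (2) in knockout against wild-type HPC, for Il17ra, Bmpr1a and Il2rg (1 each) with 5-fluorouracil, and for Il6ra (-1), Il27ra (-1), Il6st (-1), Il2rb (-2) and Acvr1b (-3) in wild-type HPC against HSC. A further 11 of the 58 net numbers of named members showed no excess in either list at equal number. Here the construction removes the weakest regions of the longer list and brings the single-list totals over all regions close together.

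With 200 bp summit windows the shares were 27.8% and 12.7% for knockout and wild-type HSC, 30.0% for wild-type against knockout HPC, 8.62% and 16.2% for 5-fluorouracil and vehicle, 48.4% and 9.81% for wild-type HPC and HSC, and 24.4% for knockout HSC against knockout HPC; windows are narrower than regions by construction. With nothing within 1 kb, wild-type HPC against knockout HPC gave 17.3%. Without the weakest 25% of regions, 5-fluorouracil against vehicle gave 2.25%, and sites in all wild-type and no knockout lists numbered 3; the cause was not tested.

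Counting gene bodies alone left 53, 67, 98, 80, 117 and 113 regions per list (wild-type HSC, knockout HSC, wild-type HPC, knockout HPC, vehicle, 5-fluorouracil), with 44 sites in all lists, 2 in HSC, 6 in HPC and 19 in 1 list. The HPC share was 48.0% against wild-type HSC and 31.2% against knockout HSC. Counting regions nearest to a member left 108, 130, 193, 159, 217 and 200 regions, with 82, 4, 14 and 38 sites, and 48.2% for wild-type HPC against HSC. Fewer regions enter by construction. Il2rb in knockout against wild-type HPC turned to 1 under both. Of the 58 net numbers of named members, 18 showed no excess in either list with gene bodies alone. With regions nearest to a member 5 of the 58 showed none. The 18 included Cxcr2, Il10ra, Ccr7 and Il2rb in knockout against wild-type HSC. In each of the 5 comparisons the same list had the larger single-list share under all 6 alternatives, except that at equal number it passed to wild-type HSC against knockout HSC and to 5-fluorouracil against vehicle.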
